A study of Mus musculus with 6 samples.

Results

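The 37 genes described here encode the transcription factor NRF2 (gene Nfe2l2), its inhibitor KEAP1, and enzymes of the glutathione and thioredoxin systems with the NADPH supply, dismutases, catalase and metallothioneins that work beside them. They were chosen by symbol from a list drawn up with earlier results of these data known, although the rule itself reads no measured value, and all 37 were found among the 24421 symbols of the count table. RNA was sequenced from C2C12, a mouse myoblast line that fuses into myotubes, with 3 libraries in each of 2 groups. All 6 sample titles also carry the word Fed, whose meaning no label gives. The shGAA group carried a lentiviral short hairpin RNA against Gaa, which encodes the lysosomal glycogen-degrading enzyme acid alpha-glucosidase. The shScrambled group carried a lentivirus with a scrambled hairpin. All cells of both groups were grown in 10% FBS, selected with puromycin and differentiated in 2% horse serum with 4.5 g/l glucose. The number of hairpins is not in the labels, nor whether each library came from its own culture, so the p-values compare groups of libraries whose spread may be technical.

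In cells at rest, KEAP1 holds NRF2 in the cytoplasm and has it degraded. When oxidants or electrophiles modify KEAP1, NRF2 enters the nucleus, pairs with a small Maf protein and binds antioxidant response elements in front of its target genes. Glutathione and thioredoxin are the main carriers of reducing power against peroxides: peroxidases and peroxiredoxins spend it, reductases restore it, and NADPH pays for both. In muscle these systems handle the peroxide formed by mitochondria and by contraction.

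The libraries held 9224038 to 10430270 counts. Gaa, the targeted gene, was at 49.1 ± 2.43 CPM (the count as a share of the scaled library size on a common scale; mean ± SD, n = 3, here and below) in shGAA and 117 ± 9.43 CPM in shScrambled, which is 42.1% of the control level. The myotube markers fixed for the check summed to 2232 to 2437 CPM in shGAA and 2927 to 3237 CPM in shScrambled, and 8 of the 11 tested were lower. The proliferating cell markers, at 1081 to 1205 against 1659 to 1765 CPM, were lower in 8 of 8, and their transcripts were present in every library. Fibroblast markers summed to 4469 to 4736 against 3764 to 3808 CPM with 3 of 5 higher and 1 lower (Thy1 at 0), while the leukocyte and endothelial lists stayed at or below 5.23 CPM and the adipocyte list at or below 0.537 CPM, with Plin1, Cidec, Lep, Cfd, Itgam and Emcn at 0. Library shScrambled 1 stood apart from shScrambled 2 and 3 on the second principal component, which held 13.4% of the variance. The part of these marker differences in the results below was not tested.

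Most antioxidant genes lay somewhat lower in shGAA. Of the 36 genes that passed the filter on low counts, 17 fell, 2 rose and 17 did not pass the test (edgeR's quasi-likelihood test, Benjamini-Hochberg adjusted p under 0.05 over all genes tested). The share called was 52.8%, against 38.2% of all 11801 tested genes, of which 18.5% were higher and 19.7% lower. Among tested genes with a mean of at least 10 CPM, a level that all 36 exceeded and that was chosen after their values were seen, 41.2% were called and 21.6% were lower. The median log2 fold change of the 36 was −0.17, with 30 below 0, against 0.01 over all tested genes. In 19 genes every shGAA library was below every shScrambled library and in 2 above, where 49.6% of all tested genes had groups that did not overlap and 24.9% had shGAA lower. Only Sod3 changed by 2-fold or more, as did 3.5% of all tested genes, and the median size of the change among the 19 called genes was 0.32 on the log2 scale, against 0.37 among all called genes. In bulk RNA, fewer cells of a type and less RNA per cell cannot be told apart.

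The scaling bears on the count: with library size alone in place of TMM, 11 of these genes were lower and 3 higher, and over all tested genes the calls moved from 2330 lower and 2182 higher to 1872 lower and 2809 higher. Calls of 10 genes (Gss, Gsta4, Gstm1, Txn1, Txn2, Prdx1, Prdx5, Taldo1, Me1 and Sod3) held in all 13 alternative settings, while those of the other 9 were lost in at least 1. Library size alone ended the calls of Gclc, Gsr, Gpx1, Gpx4, Gstm2 and Txnrd1, and DESeq2 those of Gclc, Gsr, Gpx4 and Gstm2.

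**Figure D1:**
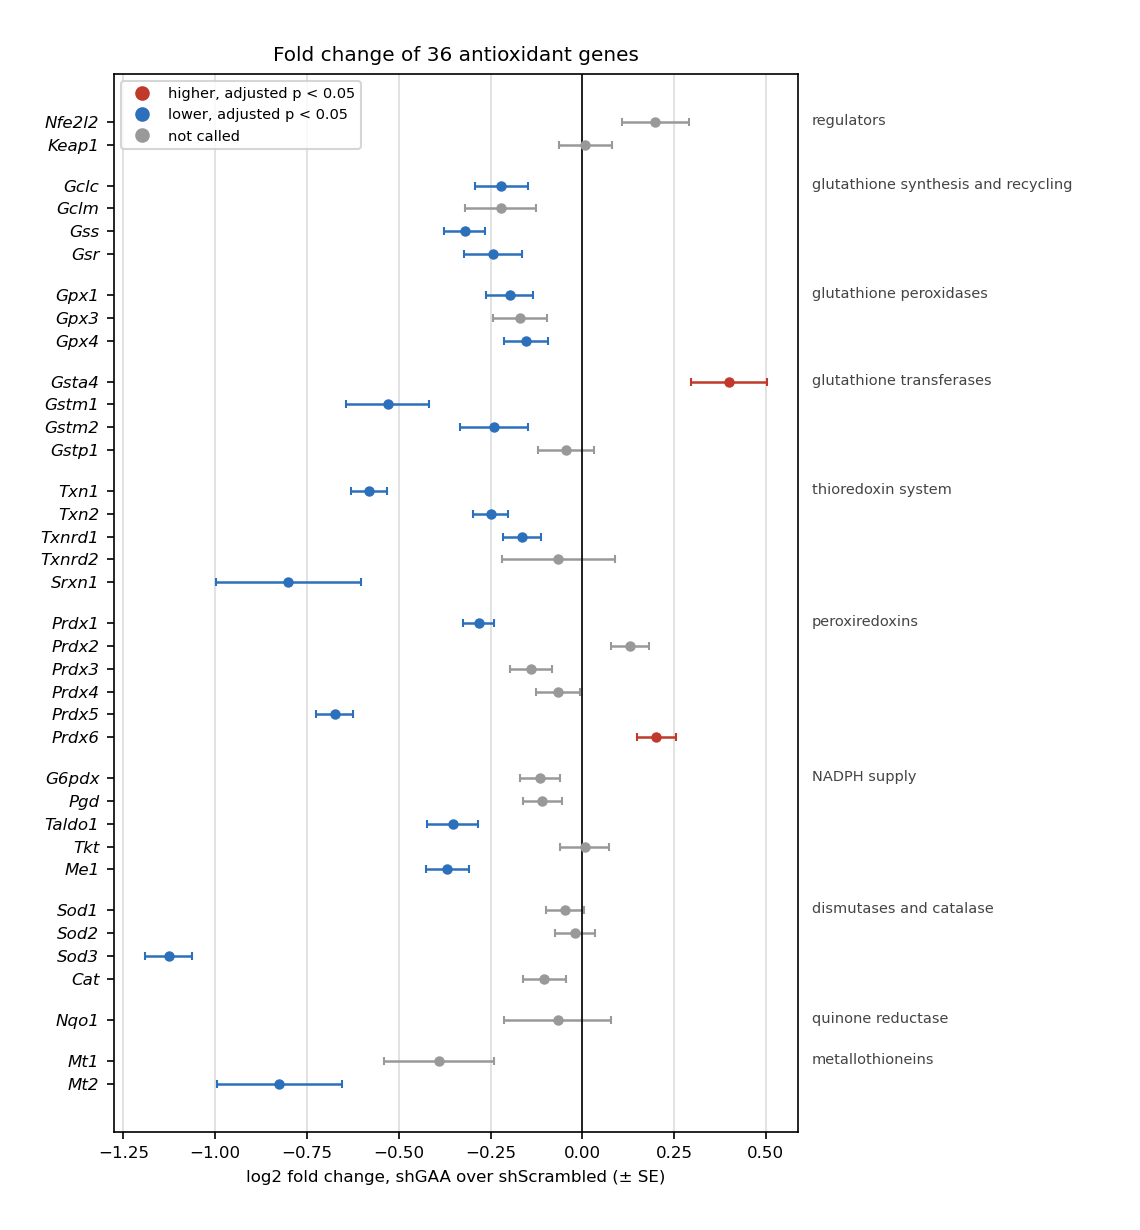
The log2 fold change of shGAA over shScrambled (x axis) is plotted for 36 antioxidant genes grouped by role (y axis), with bars for ± 1 SE and colour for the call. Of these genes 30 lie left of 0, from −1.13 for Sod3 to −0.02 for Sod2, and the 2 that rose are Gsta4 and Prdx6.

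Per kilobase of exon, the levels of these genes spanned a wide range in the controls. Txn1 was at 276 ± 11.7 RPKM (CPM per kilobase of summed exon length) in shScrambled, Mt2 at 246 ± 48.8, Prdx1 at 169 ± 2.87, Gpx1 at 152 ± 14.3 and Gpx4 at 127 ± 8.69 RPKM. The spreads of Txn1 and Mt2 overlapped, as did those of Prdx1 and Gpx1. At the low end were Gclm at 5.60 ± 0.243 and Txnrd2 at 3.12 ± 0.492 RPKM, and Nfe2l2 itself was at 52.0 ± 7.04 and Keap1 at 10.2 ± 0.562 RPKM. Among the 5 genes with the highest control level, all 5 fell in shGAA, where 19.7% of all tested genes were lower. The calls of Mt2, Gpx1 and Gpx4 were each lost in at least 1 alternative setting. Mt1 and Prdx2, next in control level (113 and 94.6 RPKM), did not pass the test. In shGAA, the spreads of Mt2 (139 ± 12.8 RPKM), Prdx1 (139 ± 2.87 RPKM) and Gpx1 (133 ± 6.13 RPKM) overlapped.

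**Figure D2:**
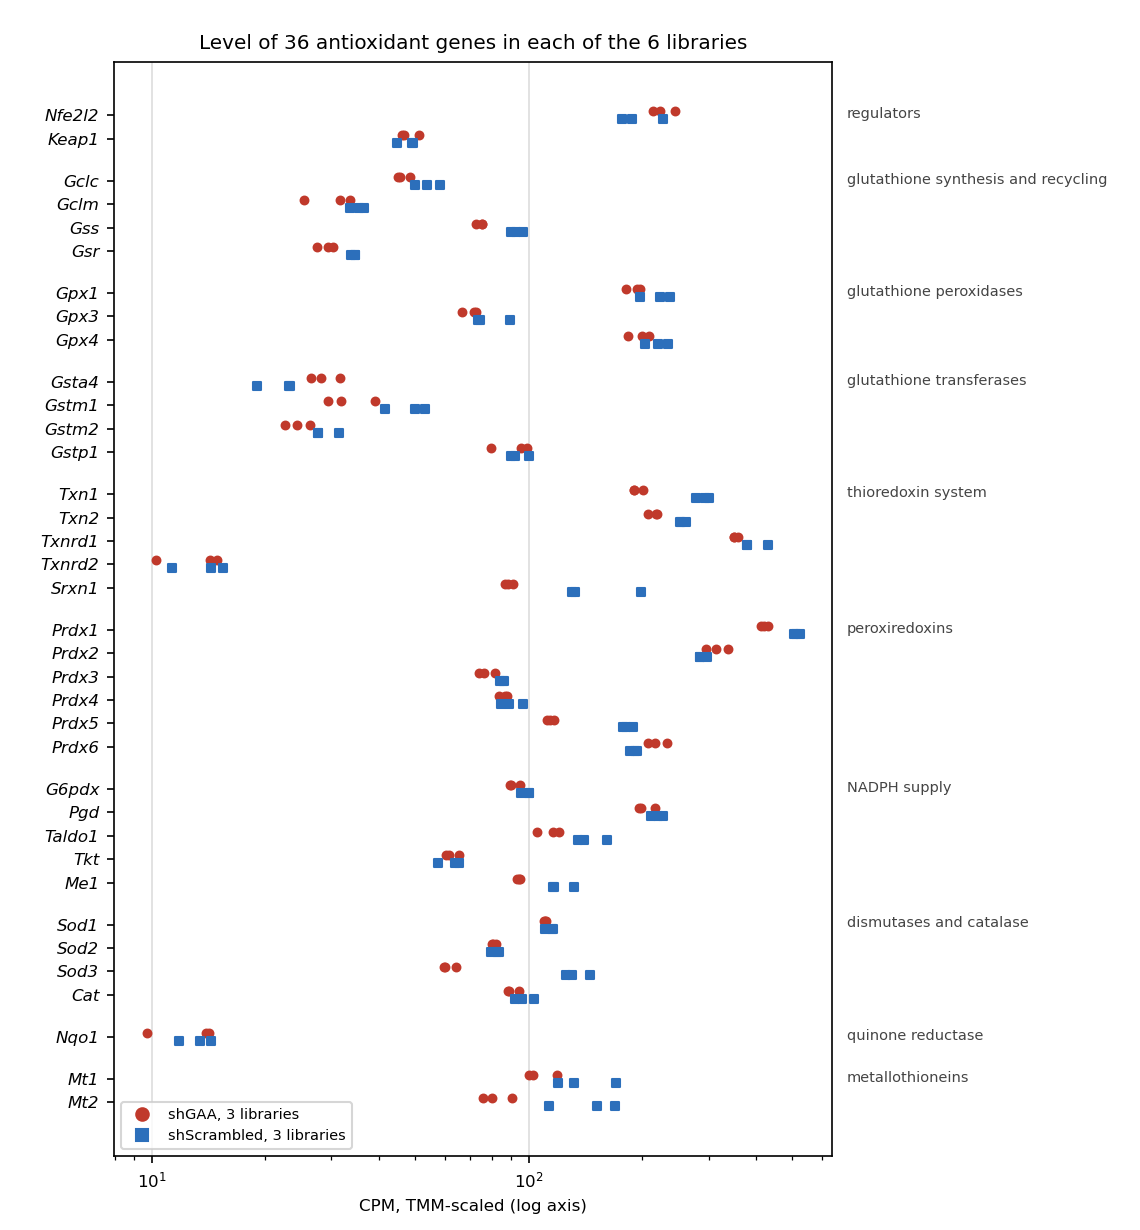
Each point is the level of a gene in 1 library (x axis, CPM on a log scale), for 36 antioxidant genes grouped by role (y axis), with shGAA and shScrambled in different colours. The shGAA points of Sod3 (59.8 to 64.2 CPM), Txn1 (190 to 201) and Prdx5 (112 to 117) lie clear of the shScrambled points, while those of Keap1, Tkt and Sod2 lie among them.

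Promoters are shown because NRF2 acts through a short element and because several of the genes that fell carry a match to its core. RefSeq promoter windows (GRCm38.p6, 250 bases before to 50 after a start site, read on the gene's strand) were matched by symbol for 32 of the 37 genes, all but Gclc, Gsr, Gsta4, Prdx6 and Sod3. The antioxidant response element core TGACNNNGC was searched on both strands, and capitals mark it below. A match in capitals that begins with GC lies on the opposite strand.
Prdx1 (chr4:116685456-116685484, + strand): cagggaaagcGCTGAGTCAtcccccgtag
Srxn1 (chr2:152105542-152105570, + strand): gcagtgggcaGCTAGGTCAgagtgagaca
Txnrd1 (chr10:82859104-82859132, + strand): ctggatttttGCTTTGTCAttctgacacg
Me1 (chr9:86695902-86695930, − strand): gatgccgccgTGACTCAGCgcttctcgcg
Gclm (chr3:122245413-122245441, + strand): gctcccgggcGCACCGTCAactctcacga
G6pdx (chrX:74428919-74428947, − strand): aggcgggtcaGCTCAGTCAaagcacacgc
Nfe2l2 (chr2:75704885-75704913, − strand): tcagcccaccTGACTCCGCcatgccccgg
The first 4 of these genes fell in shGAA, and Gclm, G6pdx and Nfe2l2 did not pass the test. Relative to the start site the match lies at −133 to −125 in Prdx1, at −92 to −84 in Txnrd1, at −6 to 2 in Me1 and at 28 to 36 in Srxn1. The Srxn1 window also holds tgagtcagc before the start site. It has G where the core has C, and was not counted as a match.

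The core was found in 10 of the 32 genes with a window (31.2%), namely G6pdx, Gclm, Me1, Mt2, Nfe2l2, Pgd, Prdx1, Sod1, Srxn1 and Txnrd1. Counted the same way, it was found in 14% of all genes with a window and in 17.2% of the tested ones, and 12.4% of all 32851 windows held it, since some genes have more than 1 window. Of the 10 tested genes with the core 5 fell, and of the 21 tested genes with a window but no match 9 fell. Over all tested genes, 20.3% of those with the core and 19.3% of those without it were lower in shGAA. A match is a run of letters in a short window, not a bound site. Variants of the core were not searched, so a gene without a match may still carry one. In Pgd and Txnrd1 the window with the match lies inside the gene, away from its outermost start.

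Neither regulator of the pathway passed the test. Nfe2l2, which encodes NRF2, was at 213, 223 and 244 CPM in shGAA 1 to 3 and at 228, 177 and 188 CPM in shScrambled 1 to 3. The groups overlapped through shScrambled 1 alone, and the log2 fold change was 0.20 ± 0.09 (SE, here and below) with an adjusted p of 0.115. Without shScrambled 1 it was 0.31 with an adjusted p of 5.99e-06, and without the filter on low counts the adjusted p was 0.00125. Keap1 was at 51.1, 46.2 and 46.7 CPM against 44.7, 49.1 and 49.4 CPM, and its log2 fold change was 0.01 ± 0.07 (adjusted p = 0.935), within a 95% interval of −0.13 to 0.15. Nqo1, the quinone reductase often used as a readout of NRF2, was low in these cells, at 9.71, 14.2 and 13.9 CPM in shGAA and 11.8, 14.4 and 13.4 CPM in shScrambled. Its groups overlapped, with a log2 fold change of −0.07 ± 0.15 (adjusted p = 0.747) and an approximate interval of −0.35 to 0.22. Of genes that fell, the value of Gstm1 (−0.53) lies outside this interval and that of Gss (−0.32) inside it. The approximate interval of Gstm1, −0.75 to −0.31, overlaps that of Nqo1.

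Genes that make and recycle glutathione lay lower in shGAA, and 3 of 4 fell. That is 75% called, where 38.2% of all tested genes were called and 19.7% were lower. Gss, glutathione synthetase, was at 75.4, 75.3 and 72.7 CPM in shGAA and 89.7, 96.5 and 92.5 CPM in shScrambled. The groups were well apart, and the level fell to 80.1% of control (log2 fold change −0.32 ± 0.06, adjusted p = 0.000247). Gclc, the catalytic subunit of glutamate-cysteine ligase, the rate-limiting enzyme of the path, was at 45.1, 45.7 and 48.4 CPM against 58.4, 50.04 and 53.8 CPM, a change of −0.22 ± 0.07 (adjusted p = 0.0222). Its modifier subunit Gclm had a like value, −0.22 ± 0.10, at 25.3, 33.6 and 31.7 CPM against 33.6, 35.5 and 36.6 CPM, but the library shGAA 2 touched the control range and the adjusted p was 0.0785. Gsr, the reductase that restores glutathione with NADPH, was at 27.5, 29.3 and 30.3 CPM against 34.6, 33.7 and 34.7 CPM, with every shGAA library lower and a change of −0.24 ± 0.08 (adjusted p = 0.0227). The 4 genes summed to 173 to 184 CPM in shGAA and 216 to 218 CPM in shScrambled, a ratio of 0.831. The calls of Gclc and Gsr were lost in several leave-outs: without shGAA 1, shGAA 2 or shScrambled 3 the adjusted p was 0.0874, 0.0765 or 0.0526 for Gclc and 0.101, 0.0569 or 0.0619 for Gsr, and 0.0695 for Gclc without shScrambled 1. The call of Gclm was gained without shGAA 2 (adjusted p = 0.0442) or shScrambled 1 (0.0285).

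Glutathione peroxidases spend glutathione on peroxides, and 2 of the 3 tested fell by small amounts. That is 66.7% called, where 38.2% of all tested genes were called and 19.7% were lower. Gpx1, the cytosolic enzyme, was at 194, 198 and 181 CPM in shGAA and 197, 238 and 223 CPM in shScrambled, a change of −0.20 ± 0.06 (adjusted p = 0.0221). The libraries shGAA 2 and shScrambled 1 overlapped. Gpx4, which reduces lipid peroxides in membranes and guards against ferroptosis, was at 208, 200 and 184 CPM against 204, 220 and 234 CPM, with a change of −0.15 ± 0.06 at an adjusted p of 0.0494, just inside the threshold, and overlapping groups. Secreted Gpx3 stood at 71.6, 66.6 and 72.7 CPM against 89.5, 74.2 and 73.4 CPM, with the groups just apart and a log2 fold change of −0.17 ± 0.07 that did not pass the test (adjusted p = 0.0821). Gpx7, of the endoplasmic reticulum, had 1 count in shScrambled 1 and 0 in the other 5 libraries, where 0 counts allow up to 0.322 CPM, and was not tested. The call of Gpx1 was lost without shGAA 1, shGAA 3, shScrambled 2 or shScrambled 3 (adjusted p = 0.0557, 0.11, 0.112 and 0.0736), that of Gpx4 in 9 of the 13 settings, namely without shGAA 2, shGAA 3, shScrambled 2 or shScrambled 3 (0.1, 0.232, 0.0969 and 0.236) and with library size only (0.162), DESeq2 (0.0811), limma-voom (0.0626), the non-robust fit (0.0668) or the replicate block (0.0964), and that of Gpx3 was gained without shScrambled 2 (0.0485). Of the transcript of Gpx4, 34.7% of the runs of 50 bases also occur in the pseudogene Gpx4-ps2, whose reads could have been counted for it or lost.

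Glutathione transferases, which join glutathione to electrophiles, went both ways. Gstm1, of the mu class, was at 29.3, 39.1 and 31.8 CPM in shGAA and 41.5, 53.2 and 49.8 CPM in shScrambled, without overlap, and fell to 69.2% of control (−0.53 ± 0.11, adjusted p = 0.00285). Its neighbour Gstm2 was at 24.3, 22.6 and 26.3 CPM against 31.3, 27.7 and 27.6 CPM, a smaller change of −0.24 ± 0.09 at an adjusted p of 0.0494. Gsta4, an alpha class enzyme with a preference for the lipid peroxidation product hydroxynonenal, rose to 132% of control (0.40 ± 0.10, adjusted p = 0.00575), at 28.2, 31.7 and 26.4 CPM against 19.0, 23.1 and 23.3 CPM. Every shGAA library was above every control. Gstp1, of the pi class and the most abundant of the 4, was at 95.2, 99.1 and 79.5 CPM against 92.2, 100 and 89.6 CPM, with a log2 fold change of −0.04 ± 0.08 (adjusted p = 0.683) that turned positive with library size alone (0.0034). The call of Gstm2 was lost in 10 of the 13 settings, among them all leave-outs but that of shGAA 3 (adjusted p = 0.051 to 0.189). Of 50-base runs, Gstm1 shares 18.9% with other genes, mainly the pseudogene Gstm2-ps1, and Gstp1 shares 33.7% with Gstp2.

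In the thioredoxin system, 4 of 5 genes fell. That is 80% called, where 38.2% of all tested genes were called and 19.7% were lower. Txn1, the cytosolic thioredoxin (chr4:57943373-57956411, GRCm38), was at 201, 190 and 191 CPM in shGAA and 277, 301 and 293 CPM in shScrambled. The libraries of each group lay close together and the level fell to 66.8% of control (−0.58 ± 0.05, adjusted p = 1.38e-07). Mitochondrial Txn2 was at 219, 217 and 208 CPM against 252, 261 and 253 CPM and fell to 84.1% (−0.25 ± 0.05, adjusted p = 0.000448). Txnrd1, the cytosolic selenoprotein that recharges thioredoxin with NADPH, was at 351, 360 and 352 CPM against 432, 379 and 381 CPM, a change of −0.16 ± 0.05 (adjusted p = 0.0188). Its groups did not overlap. Its mitochondrial partner Txnrd2 was at 14.9, 14.3 and 10.2 CPM against 11.3, 15.5 and 14.4 CPM, with a log2 fold change of −0.07 ± 0.15 (adjusted p = 0.766). The call of Txnrd1 was lost without shGAA 1 (adjusted p = 0.0665), shGAA 3 (0.0622) or shScrambled 1 (0.0748, log2 fold change −0.10).

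Srxn1, sulfiredoxin, restores overoxidised peroxiredoxins and is a strong NRF2 target (chr2:152105524-152111376). It was at 86.3, 88.1 and 90.9 CPM in shGAA and at 199, 131 and 133 CPM in shScrambled. All shGAA libraries were close together and below all controls, and shScrambled 1 stood 0.59 above the mean of the other controls on the log2 scale, a gap exceeded by 3.55% of tested genes. The level fell to 57.4% of control (−0.80 ± 0.20, adjusted p = 0.0335). Without shScrambled 1 the change was −0.57 with an adjusted p of 6.95e-12. Without shGAA 1, 2 or 3 it was −0.78, −0.80 or −0.82 and the adjusted p was 0.101, 0.1 or 0.101. The value was thus negative in every leave-out, while the call was not kept in all of them.

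Peroxiredoxins, the most abundant peroxide-reducing enzymes of most cells, split by member. Prdx5 (chr19:6906697-6910106), which is found in mitochondria, peroxisomes and cytosol, was at 112, 114 and 117 CPM in shGAA and 178, 182 and 189 CPM in shScrambled. With tight groups far apart, it fell to 62.6% of control (−0.67 ± 0.05, adjusted p = 4.1e-08). Prdx1, a cytosolic peroxidase fed by thioredoxin, was at 431, 422 and 414 CPM against 523, 511 and 506 CPM and fell to 82.3% (−0.28 ± 0.04, adjusted p = 6.39e-05). Prdx6, the glutathione-using member with phospholipase activity, rose to 115% (0.20 ± 0.05, adjusted p = 0.00587), at 216, 233 and 207 CPM against 194, 191 and 186 CPM. Every shGAA library was above every control. The cytosolic Prdx2 had a log2 fold change of 0.13 ± 0.05 (adjusted p = 0.0572), mitochondrial Prdx3 of −0.14 ± 0.06 (0.0635) and Prdx4, of the endoplasmic reticulum, of −0.07 ± 0.06 (0.408), and these 3 did not pass the test. The 6 genes summed to 1194 to 1271 CPM in shGAA and 1348 to 1354 CPM in shScrambled, a ratio of 0.915. The call of Prdx6 was lost without shGAA 2 (0.16, adjusted p = 0.0534), and calls were gained for Prdx2 without shGAA 3 (0.0205) and Prdx3 without shGAA 1 (0.0483). Trmt112 lies across 19.1% of the exon bases of Prdx5 on the opposite strand, and nothing in the labels says whether the counting used strand.

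In the class of NADPH supply, 2 of 5 genes fell. This 40% called is near the 38.2% of all tested genes called, of which 19.7% were lower. Me1, the cytosolic malic enzyme, was at 94.6, 94.4 and 93.4 CPM in shGAA and 117, 132 and 116 CPM in shScrambled. Its groups were apart, and it fell to 77.5% of control (−0.37 ± 0.06, adjusted p = 0.000106). Taldo1, transaldolase of the non-oxidative pentose phosphate branch, was at 120, 116 and 106 CPM against 135, 161 and 140 CPM and fell to 78.3% (−0.35 ± 0.07, adjusted p = 0.000805). The dehydrogenases of the oxidative branch, which make the NADPH itself, had smaller values: G6pdx was at 89.1 to 95.1 against 95.6 to 100 CPM (−0.12 ± 0.05, adjusted p = 0.108) and Pgd at 196 to 216 against 211 to 227 CPM (−0.11 ± 0.05, adjusted p = 0.113). Tkt, transketolase, was at 60.5 to 65.2 against 57.3 to 65.5 CPM (0.01 ± 0.07, adjusted p = 0.947). These 3 did not pass the test, though Pgd did without shScrambled 1 (−0.14, adjusted p = 0.0311). Of 50-base runs, Me1 shares 28.3% with other genes, mainly Gm7049.

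Among the dismutases and catalase, only Sod3 fell. Sod3, the extracellular superoxide dismutase (chr5:52363804-52369738), was at 59.8, 64.2 and 60.0 CPM in shGAA and 126, 130 and 146 CPM in shScrambled. It had the largest fold change of the 36 genes, to 45.8% of control (−1.13 ± 0.06, adjusted p = 1.56e-09). The cytosolic Sod1 was at 110, 110 and 111 CPM against 115, 111 and 116 CPM, with a log2 fold change of −0.05 ± 0.05 (adjusted p = 0.507). Mitochondrial Sod2 was at 80.3, 81.7 and 79.8 CPM against 82.5, 79.5 and 83.3 CPM (−0.02 ± 0.05, adjusted p = 0.794). The approximate intervals were −0.15 to 0.05 for Sod1 and −0.13 to 0.09 for Sod2. They apply to RNA and rest on 3 libraries in each group, so they set no limit on a change in the enzymes. With library size alone both log2 fold changes lay above 0 (0.0010 and 0.03). Of 50-base runs, Sod2 shares 21% with other genes, mainly AC166110.4. Peroxisomal catalase, Cat, was at 88.3 to 94.1 against 92.0 to 103 CPM (−0.10 ± 0.06, adjusted p = 0.174), and passed the test without shScrambled 1 (−0.14, adjusted p = 0.0474).

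Metallothioneins, small cysteine-rich proteins that bind zinc and copper, lay lower in shGAA but varied among the controls. Mt2 was at 75.5, 90.2 and 80.0 CPM in shGAA and 170, 152 and 113 CPM in shScrambled, and fell to 56.4% of control (−0.83 ± 0.17, adjusted p = 0.0155). Mt1 was at 100, 119 and 103 CPM against 120, 171 and 132 CPM, again with no overlap, and its value of −0.39 ± 0.15 did not pass the test (adjusted p = 0.096). The 2 genes ranked the controls differently: shScrambled 1 had the most Mt2 and the least Mt1. The call of Mt2 was lost without shGAA 3 (−0.81, adjusted p = 0.0672) or shScrambled 2 (−0.79, 0.0649), and Mt1 passed without shScrambled 1 (0.0474) or shScrambled 2 (0.0257), and in the limma-voom (0.0134), non-robust (0.0116) and replicate block (0.000623) fits. The antisense gene Gm45774 covers 73.5% of the exon bases of Mt2, and its reads cannot be told apart from those of Mt2 if strand was not used.

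Both metallothionein promoter windows carry metal response element cores, the sites of the zinc-sensing factor MTF1, which is why their sequences are shown. In the stretches around the start sites, capitals mark TGCACNC or TGCGCNC on either strand (a match on the opposite strand begins with G), and in Mt2 also TGACNNNGC, the first run of capitals.
Mt1 (chr8:94179056-94179107, + strand): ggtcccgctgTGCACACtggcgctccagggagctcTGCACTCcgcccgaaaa
Mt2 (chr8:94172529-94172638, + strand): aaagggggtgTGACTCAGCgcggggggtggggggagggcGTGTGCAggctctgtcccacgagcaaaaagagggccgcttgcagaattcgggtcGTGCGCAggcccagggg
The whole windows held 3 such cores in Mt1 and 4 in Mt2, and at least 1 was found in 10 of the 32 genes with a window, in 28.2% of all genes with a window and in 41% of the tested ones. The start site of the Mt1 window lies inside the gene, away from its outermost start, while that of Mt2 lies at its gene's start. Of the fixed list of metal response genes, 2 of 3 were tested. Mtf1 itself, named after its value was seen, did not pass the test (−0.18 ± 0.07, adjusted p = 0.0518). Slc30a1, a zinc exporter and MTF1 target, fell with a log2 fold change of −0.98 ± 0.21 (adjusted p = 0.0167). It was at 29.7, 31.2 and 30.1 CPM against 48.0, 78.9 and 53.1 CPM, and without shGAA 1, 2 or 3 its adjusted p was 0.059, 0.0571 or 0.0707. It is named because of its value.

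**Figure D3:**
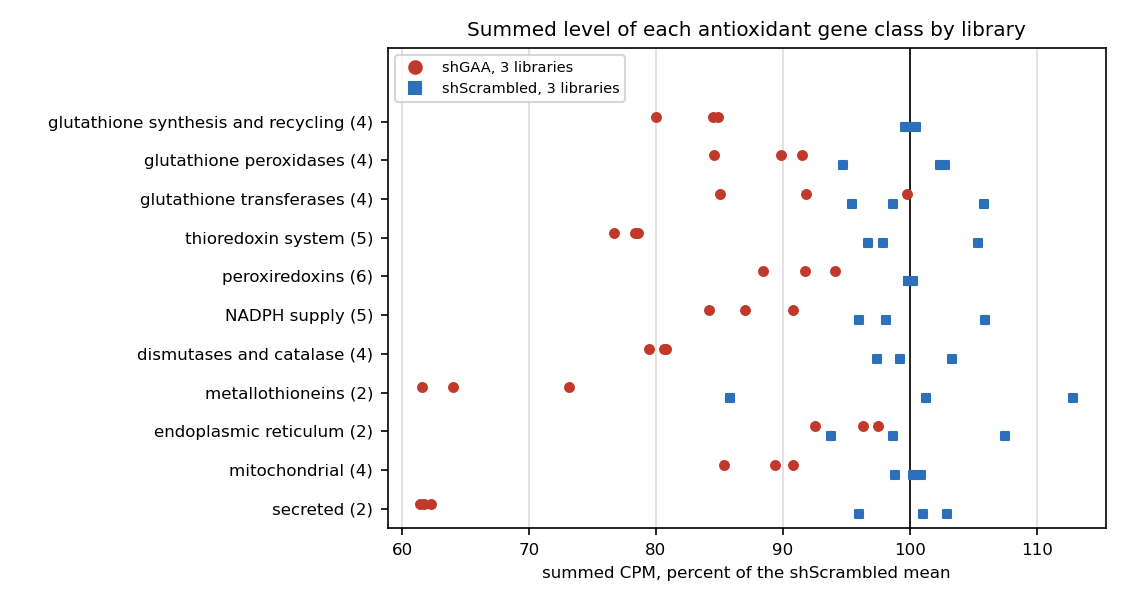
Summed CPM by class and by place in the cell (y axis, number of genes in brackets) in each library, as a percent of the shScrambled mean (x axis). The regulators (ratio 1.12) and the quinone reductase (0.953) are not plotted, and the sums of both overlapped between the groups. The shGAA sums lie below all shScrambled sums in every class plotted but the glutathione transferases and the endoplasmic reticulum genes, and lowest for the secreted genes and the metallothioneins.

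By place in the cell, the secreted genes Sod3 and Gpx3 summed to 131 to 133 CPM in shGAA and 204 to 219 CPM in shScrambled, a ratio of 0.618, which was 0.889 for Gpx3 alone. The 4 mitochondrial genes, Txn2, Txnrd2, Prdx3 and Sod2, summed to 372 to 396 against 431 to 440 CPM, a ratio of 0.885, and only Txn2 of them fell. The thioredoxin system had a ratio of 0.779, the NADPH enzymes of 0.873 and the glutathione peroxidases of 0.886. The dismutases and catalase had a ratio of 0.803 that rested on Sod3, since Sod1, Sod2 and Cat without it summed to 279 to 284 CPM in shGAA and 290 to 295 CPM in shScrambled, a ratio of 0.961. The transferases overlapped between the groups at a ratio of 0.922. Of the 5 selenoproteins (Gpx1, Gpx3, Gpx4, Txnrd1 and Txnrd2) 3 fell, with a median log2 fold change of −0.16. That is 60% called, where 38.2% of all tested genes were called and 19.7% were lower. These 3 (Gpx1, Gpx4 and Txnrd1) all lost the call with library size alone. All 37 genes summed to 4202 to 4383 CPM in shGAA and 4931 to 5060 CPM in shScrambled, a ratio of 0.859, and these sums carry no test.

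Ratios of partner genes within a library do not depend on scaling, and 8 were compared. The ratio of Txn1 to Txn2 counts was 0.917, 0.876 and 0.918 in shGAA and 1.10, 1.15 and 1.16 in shScrambled, a difference of −0.33 on the log2 scale, with the cytosolic form lower relative to the mitochondrial form in every shGAA library. Prdx1 against Prdx3 differed in the same sense, by −0.14. The ratio of Mt1 to Mt2 was 1.33, 1.32 and 1.29 in shGAA against 0.706, 1.13 and 1.16 in shScrambled. For these 3 pairs and Sod1 against Sod2 (−0.03) the groups did not overlap, which gives an exact two-sided permutation p of 0.1, the smallest that 3 against 3 libraries allow, and 0.2 after adjustment over the 8 pairs. The ratios of Gclc to Gclm (a difference of 0.01, exact p = 0.9), Txnrd1 to Txnrd2 (−0.09, p = 0.6), Gstm1 to Gstm2 (−0.29, p = 0.2) and Nfe2l2 to Keap1 (0.20, p = 0.3) overlapped between the groups.

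Other genes of NRF2 and redox biology were read from a list of 114 symbols, of which 113 were in the table and 96 were tested. They moved in both directions: 18 rose, 24 fell and 54 did not pass the test, a share called of 43.8%, near the 38.2% of all tested genes. Their median log2 fold change was −0.05. Among NRF2's partners, 2 of 3 small Maf genes fell. Maff was at 28.6, 29.6 and 33.5 CPM in shGAA and 80.9, 81.5 and 71.4 CPM in shScrambled (−1.35 ± 0.08, adjusted p = 1.66e-09), and Mafk at 39.6, 43.7 and 39.1 against 55.7, 57.9 and 59.8 CPM (−0.50 ± 0.07, adjusted p = 2.72e-05). Mafg (0.16 ± 0.08, adjusted p = 0.132) and the competing repressor Bach1 (0.12 ± 0.06, adjusted p = 0.131) did not pass the test. Sqstm1, the autophagy receptor p62 that binds KEAP1, rose by a small amount (0.14 ± 0.05, adjusted p = 0.0368), at 632, 692 and 618 CPM against 551, 600 and 607 CPM. That call was lost if shGAA 1 (adjusted p = 0.0561), shGAA 2 (0.224) or shScrambled 1 (0.0918) was left out, and with DESeq2 (0.052).

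Further NRF2 targets split, with 6 higher and 8 lower of 20 tested (70% called, against 38.2% of all tested genes, 18.5% higher and 19.7% lower). Hmox1, heme oxygenase, was at 35.1, 33.8 and 30.5 CPM in shGAA and 31.3, 23.6 and 27.0 CPM in shScrambled (0.28 ± 0.10, adjusted p = 0.038), with shGAA 3 inside the control range. Slc7a11, the cystine importer that feeds glutathione synthesis, was low, with 23, 28 and 26 counts against 20, 2 and 4 counts, and shScrambled 1 was close to the shGAA libraries (1.49 ± 0.51, adjusted p = 0.0386). Both calls were lost without shGAA 1, shGAA 2, shScrambled 2 or shScrambled 3 (adjusted p = 0.145, 0.11, 0.168 and 0.0973 for Hmox1, and 0.0819, 0.119, 0.0718 and 0.113 for Slc7a11), and that of Slc7a11 also without shGAA 3 (0.0989). Fth1, the ferritin heavy chain that stores iron in a harmless form, fell from 1221, 1277 and 1356 CPM to 898, 918 and 916 CPM (−0.50 ± 0.04, adjusted p = 2.42e-07). Its light chain partner Ftl1, named after its value was seen, rose from 692, 816 and 807 CPM to 927, 908 and 854 CPM (0.22 ± 0.06, adjusted p = 0.00965). Without shGAA 1 the adjusted p of Ftl1 was 0.0515. Of its 50-base runs Ftl1 shares 58.4% with other genes, 47.3% with the pseudogene Ftl1-ps1, and 26.5% of its exon bases are overlapped on the opposite strand, so its counts are uncertain. Esd, the esterase that hydrolyses S-formylglutathione, fell (−0.51 ± 0.05, adjusted p = 3.65e-07).

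Among genes that use or restore glutathione, thioredoxin and NADPH, the named ones again went both ways. Txnip, the thioredoxin-binding inhibitor that follows glucose, was at 157, 152 and 160 CPM in shGAA and 199, 222 and 219 CPM in shScrambled (−0.45 ± 0.05, adjusted p = 5.02e-06), and the antisense gene Gm15441 overlaps 19.4% of its exon bases. Glrx, the cytosolic glutaredoxin, named after its value was seen, was at 15.3, 15.7 and 12.8 CPM against 29.0, 23.8 and 24.3 CPM (−0.82 ± 0.11, adjusted p = 2.77e-05). Chac1, which degrades glutathione (0.66 ± 0.14, adjusted p = 0.00142), Oplah, which returns oxoproline to glutamate (0.62 ± 0.14, 0.00255), and Sesn2, a stress-induced sestrin (0.55 ± 0.08, 6.81e-05), rose. Of the 13 other NADPH genes 5 rose and 3 fell (61.5% called, against 38.2% of all tested genes). The mitochondrial NADP enzymes Me3 (1.10 ± 0.17, adjusted p = 8.43e-05), Aldh1l2 (0.56 ± 0.08, 3.19e-05) and Idh2 (0.26 ± 0.06, 0.00208) rose. Nnt (0.05 ± 0.07, adjusted p = 0.582) and Nadk2 (−0.06 ± 0.11, 0.681), also mitochondrial and named after their values were seen, did not pass the test. In the same list cytosolic Idh1 (0.28 ± 0.07, adjusted p = 0.00265) rose and mitochondrial Me2 (−0.32 ± 0.06, 0.000287) fell. Both were named after their values were seen. Me2 stands in the list but is not counted with the NADP enzymes above. Me3 was low, at 9.71, 9.50 and 8.55 CPM in shGAA against 3.60, 5.26 and 4.06 CPM. Nadk, the kinase that makes NADP from NAD, fell (−0.44 ± 0.05, adjusted p = 2.51e-06).

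**Figure D4:**
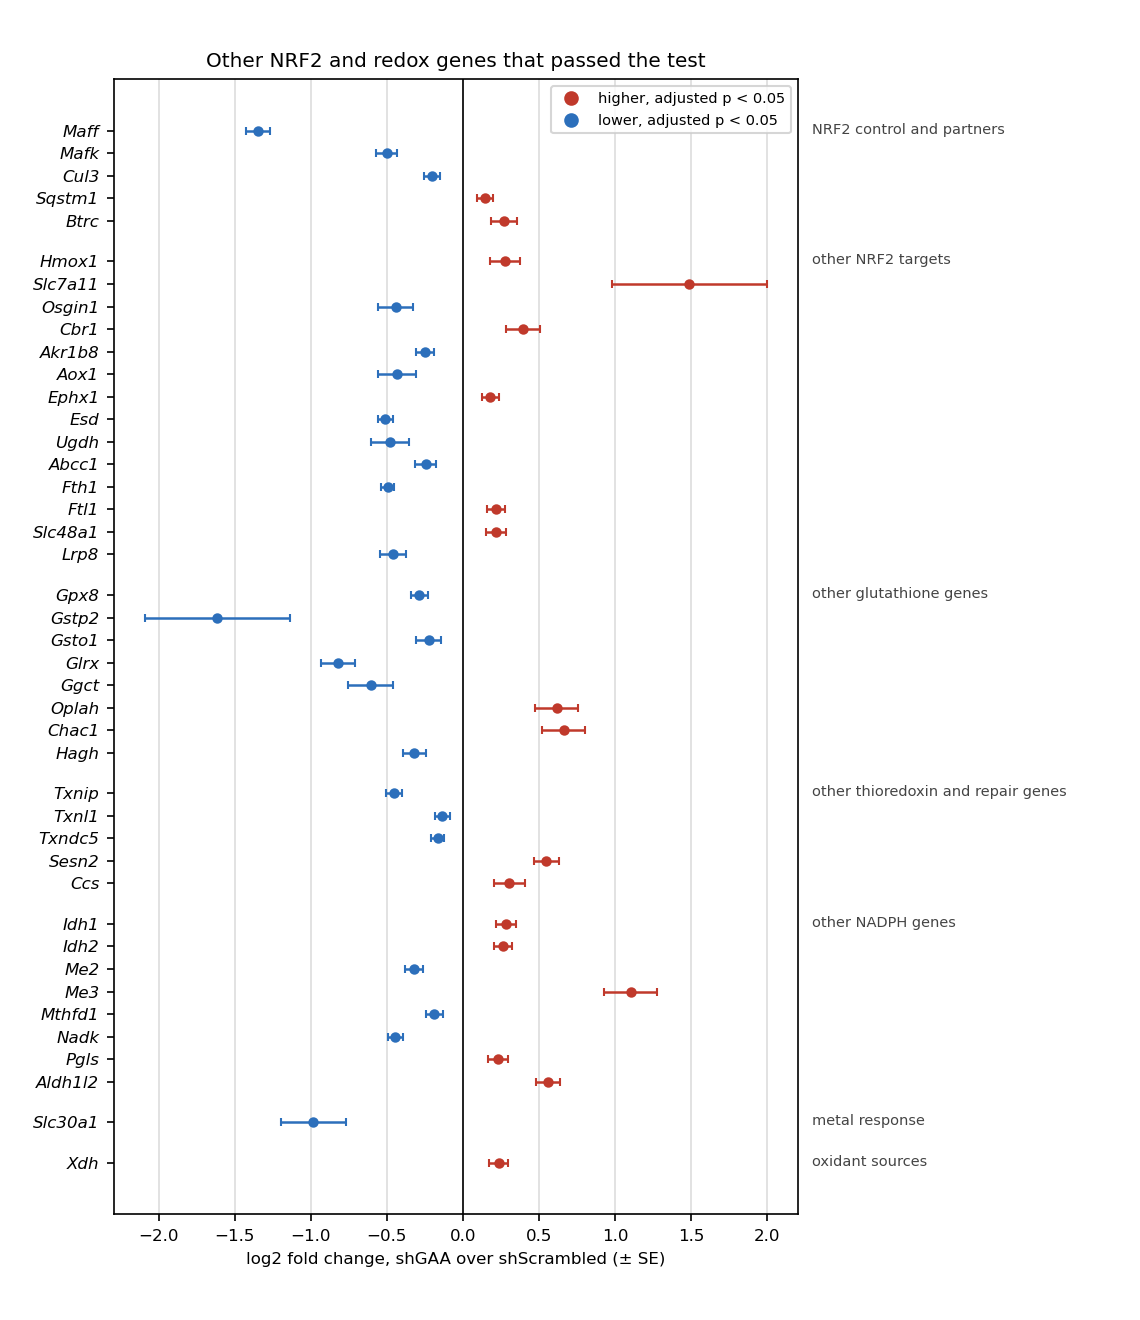
The log2 fold change of shGAA over shScrambled (x axis, bars for ± 1 SE) is plotted for the 42 other NRF2 and redox genes that passed the test, by group (y axis). The 18 that rose and the 24 that fell occur in nearly every group, from −1.61 for the low-count Gstp2 to 1.49 for Slc7a11, both with long bars.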

How the data were processed

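The values are raw counts by gene symbol in whole numbers, deposited by the authors as 1 table with a column for each library. Build mm10, FastQC, HISAT2 2.1.0, Subread and edgeR are named in the submitters' processing notes. The sources used here do not give the annotation, strand use or handling of multi-mapping reads. From the deposited counts, 11801 of 24421 symbols passed filterByExpr (99.9% of counts), libraries were scaled by TMM (factors 0.979 to 1.02), and edgeR 4.0.16 (R 4.3.3; robust quasi-likelihood F-test, group as the only term) was fitted to all of them, with Benjamini-Hochberg adjustment and calls at 0.05. The code was tested on simulated counts. RPKM used GENCODE M21 exon unions on GRCm38, the same assembly as mm10. Pair ratios used counts plus 0.5 and an exact permutation test. Alternatives were library size only, DESeq2 size factors, no filter, DESeq2 1.42.0, limma-voom (limma 3.58.1), a non-robust fit, a replicate block and leaving out each library. All members were named; of the companion list, 6 fixed genes and the 6 called genes with the smallest adjusted p in each direction. The members and lists were chosen with earlier results of these data known. One companion, Gstp3, was not matched, and Mymk was matched as Tmem8c through RefSeq synonyms.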

Additional observations from a re-analysis of the deposited data

How the results depend on the processing

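Of these genes, 2 were higher and 17 lower in shGAA. Without a filter on low counts 4 were higher (Nfe2l2 and Prdx2 were gained), Gclm and Gpx3 were gained as lower and Srxn1 was lost (adjusted p = 0.0612), and leaving out each library gave 1 to 3 higher and 12 to 18 lower. With library size only, 11 were lower, all among the 17. The other NRF2 and redox genes numbered 12 to 22 higher and 18 to 25 lower across the settings, against 18 and 24. With library size only, summed levels moved beyond 1 SD, to log2 ratios of −0.22 for glutathione synthesis and recycling, −0.082 for peroxiredoxins, −0.27 for dismutases and catalase, −0.13 for mitochondrial genes, −0.65 for secreted genes and −0.17 for all 37 genes; the median of all tested genes moved from 0.01 to 0.05. Leaving Sod3 out of the sums, an alternative chosen after seeing the data, gave −0.058 for dismutases and catalase and −0.17 for secreted genes, since Sod3 holds most of both differences. With an A required after the core, 2 genes matched in place of 10. These were Pgd and Txnrd1, whose matching windows lie inside the gene, away from its outermost start. Signs reversed only for values that did not pass the test. With library size only these were Gstp1 (0.0034), Sod1 (0.0010) and Sod2 (0.027). Leaving out each library, the log2 fold change ranged from −0.038 (without shGAA 1; −0.038 also without shScrambled 1) to 0.035 (without shGAA 2) for Keap1, from −0.11 (shGAA 2) to 0.050 (shGAA 3; 0.0042 without shScrambled 2) for Gstp1, from −0.19 (shScrambled 1) to 0.093 (shGAA 3; 0.029 without shScrambled 2) for Txnrd2, from −0.050 (shScrambled 1; −0.024 without shGAA 2) to 0.046 (shScrambled 2) for Tkt and from −0.16 (shGAA 2) to 0.089 (shGAA 1) for Nqo1. The ratio differences ranged from −0.088 (shGAA 1; below 0 also without shScrambled 2 or 3) to 0.11 (shGAA 2) for Gclc/Gclm and from −0.26 (shGAA 3) to 0.10 (shScrambled 1; above 0 also without shGAA 1) for Txnrd1/Txnrd2. The cause of these changes was not tested, beyond the smaller number of libraries. Replicate numbers are shared by the groups but did not pair the libraries (same-number correlations −0.04, 0.06 and −0.01, and not every library correlated best with its own number). With the replicate block, 16 of these genes were lower (15 of them among the 17) and 2 higher, and over all genes 2197 were lower and 2037 higher. The least abundant of these genes that were tested, Txnrd2 and Nqo1, had standard errors of 0.15. The largest belonged to the more abundant Srxn1 (0.20) and Mt2 (0.17).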
